A study of Bos taurus with 16 samples.

Results

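The corpus luteum grows from the emptied ovarian follicle and secretes progesterone. Messenger RNA of the whole gland was compared between day 20 and day 17 of pregnancy in cattle. The 8 libraries came from 4 cattle on day 20 and 4 cattle on day 17, chosen by the day of pregnancy in the labels. All were bred by a bull at estrus and inseminated 12 h later, and all were found pregnant. The labels name no treatment and no engineered allele, and the sources used here give neither breed nor age. A further 4 cattle each on day 14 and day 23 entered the estimate of the spread and are shown beside the comparison. Of 27233 genes in the table, 12999 were tested, those that reached an RPKM of 1 in 4 or more of these 8 libraries. RPKM is the number of reads scaled to the length of the gene and the depth of the library. The design text gives 4 cattle for each day. It says nothing more of how the libraries relate to them, so p-values measure the spread between these libraries.

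The corpus luteum of cattle is removed by luteolysis, in which pulses of prostaglandin F2 alpha from the uterus, amplified by luteal oxytocin, end progesterone synthesis and break the tissue down. In pregnancy the conceptus secretes interferon tau, a type I interferon, which blunts those pulses and also reaches the ovary. Type I interferon binds IFNAR1 and IFNAR2, and a complex that holds STAT2 and IRF9 then switches on antiviral genes. Day 17 lies near the time at which luteolysis would begin without an embryo, and day 20 lies after it.

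Depth, as reads recovered from the RPKM steps, lay between 28.7 M and 44.6 M a library. Luteal markers were abundant on both days: the mean of log2(RPKM + 1) over 11 tested markers of luteal cells was 9.07 ± 0.06 on day 20 and 9.07 ± 0.11 on day 17 (SD, n = 4). Day 17 replicate 3 stood apart in its interferon response. It was the highest of the 4 day 17 libraries in 49 of 51 interferon-stimulated genes, against 2622 of the 12999 genes tested. It was at or above the lowest day 20 library in 48 of the 51. Day 20 replicate 2 was the highest day 20 library in 37 of the 51, against 2708 of all genes tested, and in 8 of 12 class II genes. Day 20 replicate 4 was the highest day 20 library in 19 of 34 immediate early genes, against 4458 of all genes tested. In whole tissue, fewer cells of a type and less RNA per cell cannot be told apart.

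No gene passed an adjusted p of 0.05 in limma, a linear model fitted to all 16 libraries on log2(RPKM + 1). The smallest adjusted p was 0.0929, for ANKRD33B and RGS1, and the smallest for a gene lower on day 20 was 0.322. At an unadjusted p under 0.05, 373 genes were higher on day 20 (2.87% of those tested) and 693 were lower (5.33%). The split depends on the scaling: with median-ratio scaling of the libraries it was 535 higher and 500 lower. In 180 genes all 4 day 20 libraries lay above the 4 of day 17 (1.38%), and in 412 all 4 lay below (3.17%); with median-ratio scaling these were 269 and 303. Limma's voom on the recovered reads also passed 0 genes, with 375 higher and 682 lower at an unadjusted p under 0.05.

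The differences in the 2 directions were of unequal size. The 180 genes that lay above had a median log2 fold change of 0.35, and 23 of them reached 1 or more. The 412 that lay below had a median of -0.27, and 6 of them reached -1 or less. The median over all genes was -0.03, and 5556 genes were positive and 7443 negative. This split too depends on the scaling: with median-ratio scaling 6681 were positive and 6318 negative, with a median of 0.005. The percentages above are the background for every count of list members that follows. No single gene described below passed the adjusted threshold, and each is given by its values.

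**Figure D1:**
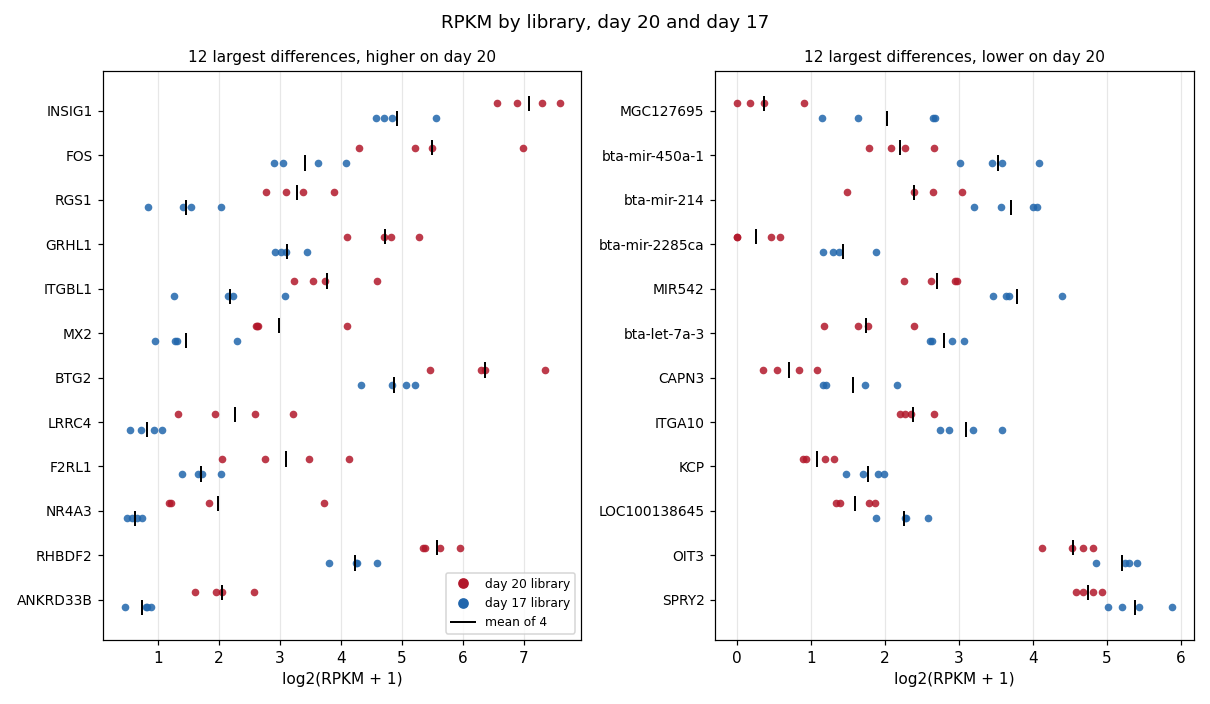
Each point is 1 library, on a scale of log2(RPKM + 1), with day 20 above day 17 in each row and the mean of 4 as a black bar; left, the 12 genes with the largest log2 fold change among those whose day 20 libraries all lie above, and right, the 12 whose day 20 libraries all lie below. By the choice of genes the groups do not overlap; the distances run from a log2 fold change of 2.17 for INSIG1 to -1.66 for MGC127695.

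The 12 largest differences upward, among genes with an unadjusted p under 0.05 and no overlap between the days, were led by INSIG1. INSIG1 holds the sterol sensor in the endoplasmic reticulum and so brakes cholesterol synthesis. It had an RPKM of 93.7, 157, 192 and 117 on day 20, against 27.7, 46.0, 22.8 and 25.1 on day 17 (log2 fold change 2.17 ± 0.64 SE, adjusted p = 0.43). The lowest day 20 library was thus above the highest of day 17, and the means of days 14 and 23 were 79.1 ± 31.0 and 88.6 ± 83.7 (SD, n = 4).

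FOS and NR4A3 are transcription factors of the immediate early response, and BTG2 restrains cell division. FOS had 18.6, 43.9, 126 and 36.4 on day 20, against 6.50, 11.3, 15.96 and 7.27 on day 17 (2.08 ± 0.82, adjusted p = 0.51). BTG2 had 81.6, 77.7, 43.1 and 162 on day 20, against 19.1, 32.5, 36.4 and 27.8 (1.501 ± 0.37, adjusted p = 0.39). NR4A3 was at 1.25, 2.55, 1.32 and 12.2 on day 20, against 0.404 to 0.659 on day 17. Day 20 replicate 4 was highest in BTG2 and NR4A3, and replicate 3 in FOS.

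RGS1, which speeds the shut-off of G protein signals and is abundant in immune cells, had 5.80, 9.40, 7.62 and 13.7 on day 20, against 1.90, 3.10, 1.66 and 0.781 on day 17 (1.83 ± 0.29, adjusted p = 0.0929). ANKRD33B had 2.84, 2.03, 4.99 and 3.13 on day 20, against 0.770, 0.369, 0.841 and 0.752 (1.301 ± 0.20, adjusted p = 0.0929). Their 95% intervals ran from 1.21 to 2.45 for RGS1 and from 0.87 to 1.73 for ANKRD33B. RHBDF2, a carrier protein for the shedding protease ADAM17, was at 39.8 to 61.3 on day 20 and 12.97 to 23.2 on day 17.

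The transcription factor GRHL1 was at 16.1 to 38.1 on day 20 and 6.53 to 9.89 on day 17. F2RL1, a receptor that proteases activate, was at 3.12 to 16.6 on day 20 and 1.63 to 3.10 on day 17. The adhesion molecule LRRC4 ranged over 1.51 to 8.31 on day 20 and 0.446 to 1.10 on day 17, and the integrin-like protein ITGBL1 over 8.35 to 23.2 on day 20 and 1.39 to 7.51 on day 17. MX2, an antiviral GTPase, completes the set with 5.26, 16.2, 5.06 and 5.13 on day 20, against 1.43, 0.922, 3.91 and 1.47 on day 17 (1.53 ± 0.34, adjusted p = 0.32).

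Of the 12 largest differences downward, 5 were microRNA hairpins, which in these libraries rest on very few reads. The hairpin bta-mir-214 had 1.80, 7.23, 4.23 and 5.29 on day 20, against 8.24, 14.99, 10.9 and 15.7 on day 17 (-1.32 ± 0.31, adjusted p = 0.36), from 9 to 58 reads a library. The hairpins bta-mir-450a-1 and MIR542 averaged 3.71 ± 1.21 and 5.63 ± 1.44 on day 20, against 10.97 ± 3.73 and 13.3 ± 4.50 on day 17 (SD, n = 4). Also lower were bta-let-7a-3 and bta-mir-2285ca, the last with at most 5 reads in any of the 8 libraries. Over the 84 hairpin rows tested, 59 had a negative and 25 a positive difference with a median log2 fold change of -0.25, and 6 lay wholly below. An mRNA library of this kind reads the hairpin or its host transcript and does not measure the mature microRNA.

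The other 7 were protein-coding or unnamed genes at low to middle levels. SPRY2, an inhibitor of growth factor receptor signals, had 29.5, 24.6, 27.2 and 22.9 on day 20, against 35.8, 31.4, 42.2 and 57.9 on day 17 (-0.63 ± 0.16, adjusted p = 0.39). ITGA10, a collagen-binding integrin, averaged 4.23 ± 0.76 on day 20 and 7.79 ± 2.37 on day 17, and KCP, a secreted modulator of BMP signals, 1.13 ± 0.30 and 2.44 ± 0.52. OIT3 was at 16.5 to 27.2 on day 20 and 27.9 to 41.4 on day 17. The calpain CAPN3 (0.281 to 1.11 on day 20, 1.25 to 3.47 on day 17), LOC100138645 and MGC127695 were near the filter, and MGC127695 was at 0 in 1 day 20 library.

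Interferon-stimulated genes were the list with the largest median. All 51 tested members of 61 listed had a positive log2 fold change, with a median of 0.63 against -0.03 over all genes. Of the 51, 27 were higher at an unadjusted p under 0.05 (2.87% of all genes were), 0 were lower, and 3 lay wholly above day 17, namely MX2, EIF2AK2 and STAT2. Day 17 replicate 3 was left out, a choice made after seeing that it was highest of its day in 49 of the 51. Without it the median was 0.95, 44 members were higher at an unadjusted p under 0.05 and 38 lay wholly above. The shares of all genes were then 2.92% and 2.65%. The choice itself favours higher values in this list, so these counts are no further support for a difference. In the fit without that library 0 genes passed the adjusted threshold as well. Without day 20 replicate 2 the median of the list was 0.51, and that of the class II genes below was 0.27.

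ISG15, a ubiquitin-like protein, had 173, 221, 143 and 247 on day 20, against 26.8, 28.4, 359.5 and 61.3 on day 17 (1.56 ± 0.64, adjusted p = 0.54). The highest of all 8 values was therefore a day 17 library, and the other 3 of day 17 lay below every day 20 library. MX1, an antiviral GTPase, had 166, 171, 130.3 and 233 on day 20, against 44.2, 60.5, 235 and 75.1. IFIT1, which binds foreign RNA, had 16.1, 31.3, 14.3 and 15.3 on day 20, against 2.66, 4.03, 28.9 and 7.53. RSAD2, the antiviral enzyme viperin, had 11.4, 20.0, 10.3 and 14.6 on day 20, against 3.36, 4.08, 15.4 and 7.51. In each of the 4 genes day 17 replicate 3 was within or above the day 20 range, and replicate 4 came next among the day 17 libraries.

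Without that library, left out after its values were seen, the log2 fold change of ISG15 was 2.38 (limma, adjusted p = 0.096). That of MX1 was 1.53 (adjusted p = 0.21), that of IFIT1 1.84 (adjusted p = 0.16) and that of RSAD2 1.35 (adjusted p = 0.21). EIF2AK2, the kinase that halts translation on double-stranded RNA, did not rest on it: it had 12.9, 17.3, 13.9 and 14.6 on day 20, against 6.45, 9.07, 10.6 and 11.6 on day 17 (0.61 ± 0.15, adjusted p = 0.36). IFIH1, a sensor of viral RNA, had 9.64, 16.8, 10.2 and 14.1 on day 20, against 4.41, 5.70, 10.6 and 7.47. OAS1X, OAS1Y, OAS1Z and IFITM3 have near-identical copies that may share reads, so their place in the plot of single members is uncertain.

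**Figure D2:**
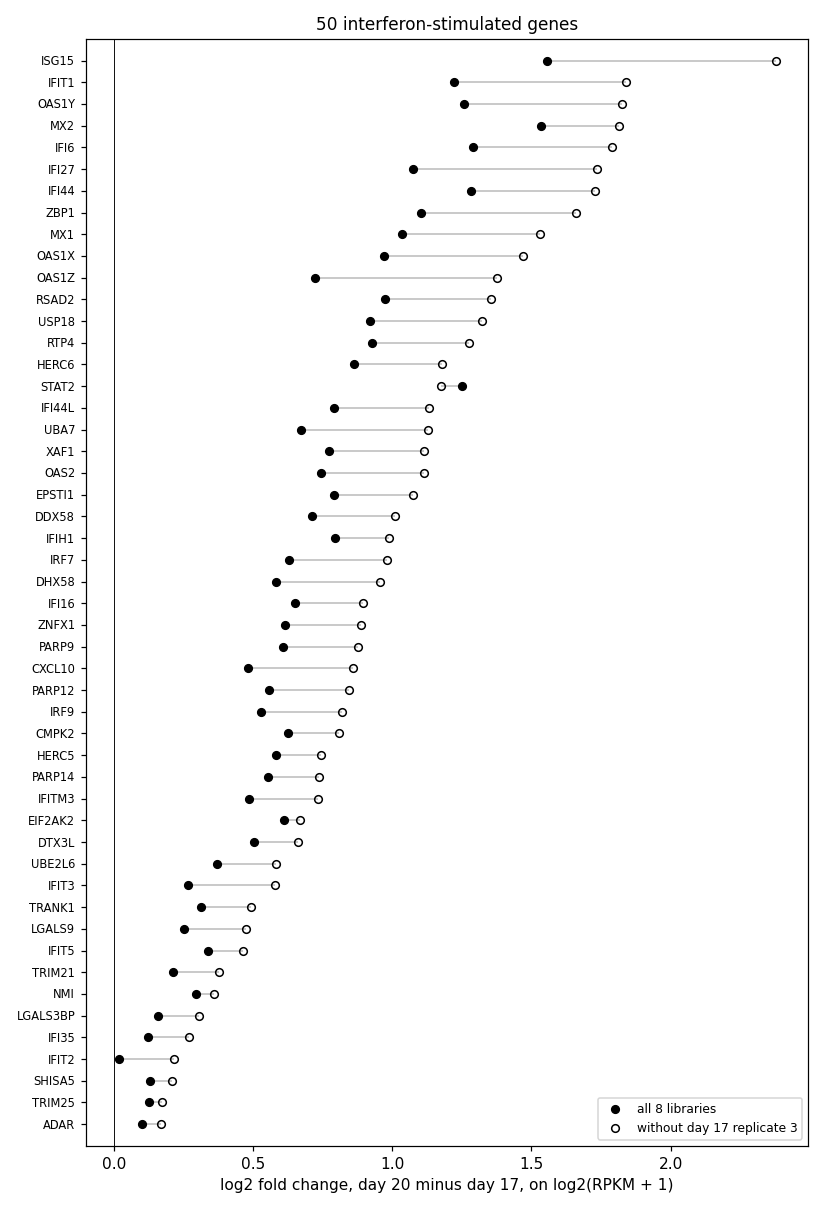
Each row is an interferon-stimulated gene, 50 of the 51 tested, and the x axis is the log2 fold change of day 20 minus day 17 on log2(RPKM + 1), filled with all 8 libraries and open without day 17 replicate 3. All 50 lie above 0 in both fits, and the open point lies to the right of the filled one except in STAT2.

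STAT2 did not share the pattern of the others. It had 52.3, 40.3, 44.1 and 40.3 on day 20, against 33.8, 34.0, 15.2 and 5.52 on day 17 (1.25 ± 0.38, adjusted p = 0.44), so that its 2 lowest libraries were the 2 day 17 animals with the highest ISG15. Its partner IRF9 had 40.2, 49.2, 37.3 and 41.5 on day 20, against 22.3, 18.5, 53.4 and 30.5 on day 17. On day 14 STAT2 averaged 33.0 ± 3.30, and on day 23 it averaged 39.9 ± 4.80 (SD, n = 4).

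The receptors lay closer together than the genes they control. IFNAR1 averaged 16.9 ± 2.50 on day 20 and 16 ± 4.27 on day 17, with a log2 fold change of 0.10 and a 95% interval of -0.25 to 0.44. IFNAR2 averaged 18.8 ± 2.63 and 16.2 ± 0.48 (0.19, interval -0.02 to 0.40). IFNGR1, a chain of the receptor for interferon gamma, lay wholly above with 47.0, 44.0, 46.8 and 50.5 on day 20, against 32.9, 36.6, 33.8 and 38.6 on day 17 (0.40 ± 0.14, adjusted p = 0.46). SOCS3, a feedback inhibitor of cytokine signals, was spread widely at 10.8 to 55.1 on day 20 and 7.48 to 18.9 on day 17. The list holds these receptors and their signalling genes. Of its 24 tested members 18 were positive, 3 were higher at an unadjusted p under 0.05 and 0 lower. IFNGR1 was the only receptor among the 3, and STAT2 was counted with the interferon-stimulated genes as well.

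Genes of antigen presentation had positive differences in most members but overlapped between the days. For class I, 20 of 22 were positive with a median of 0.22, 1 was higher at an unadjusted p under 0.05 and 0 lay wholly above. B2M, the light chain of class I molecules, had 413, 422, 363 and 613 on day 20, against 318, 258, 496 and 273 on day 17, where the high value was again replicate 3. JSP.1, a class I heavy chain, ranged over 206 to 2412 on day 20 and 95.7 to 679.7 on day 17, and copies of this gene may share reads. For class II, 12 of 12 were positive with a median of 0.33 and 2 were higher at an unadjusted p under 0.05. The 2 were CD86, which is also in the macrophage list, and CTSS, so no class II chain reached that threshold. BOLA-DRA averaged 106 ± 28.2 on day 20 and 85.1 ± 27.8 on day 17. Without day 17 replicate 3, left out after its values were seen, 6 class I and 5 class II members were higher at that threshold (2.92% of all genes were). That library was the highest of its day in 14 of the 22 class I and 11 of the 12 class II genes. The choice favours higher values in these lists, so these counts are no further support for a difference.

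Immediate early genes are those that cells transcribe within minutes of a stimulus. Of 34 tested members 29 were positive with a median of 0.37, 10 were higher at an unadjusted p under 0.05, 0 were lower, and 5 lay wholly above, namely PER1, BTG2, FOS, NR4A3 and MCL1. Without day 17 replicate 3, left out after its values were seen, 12 lay wholly above (2.65% of all genes did). That library was the highest of its day in 15 of the 34, so this count is no further support for a difference. The mean level of the list lay between 4.53 and 5.05 in the 4 day 20 libraries and between 3.98 and 4.33 in the 4 of day 17. It was 4.48 ± 0.56 on day 14, where 1 library reached 5.31, and 4.11 ± 0.14 on day 23 (SD, n = 4).

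PER1, a clock gene that also responds at once to hormones, had 40.6, 40.3, 37.9 and 60.3 on day 20, against 21.0, 19.2, 19.1 and 18.8 on day 17 (1.13 ± 0.23, adjusted p = 0.32). All 4 day 17 values lay close together, below the lowest of day 20. EGR1, a zinc finger transcription factor, had 39.1, 70.5, 106 and 119 on day 20, against 24.97, 34.1, 43.8 and 32.2 on day 17, and the days overlapped. CYR61, a matrix signalling protein, had 54.3, 103, 132 and 41.8 on day 20, against 18.7, 42.8, 21.1 and 18.2.

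Of the 15 clock genes tested, 8 were positive, and PER1, HLF and BHLHE40 were higher at an unadjusted p under 0.05. HLF averaged 3.92 ± 0.45 on day 20 and 2.85 ± 0.65 on day 17, and BHLHE40 17.8 ± 9.53 and 9.04 ± 2.24 (SD, n = 4). BHLHE41, which represses the same genes, was at 9.61 ± 2.14 and 12.2 ± 2.63. The sources used here give no hour of collection, and its part in these values was not tested.

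**Figure D3:**
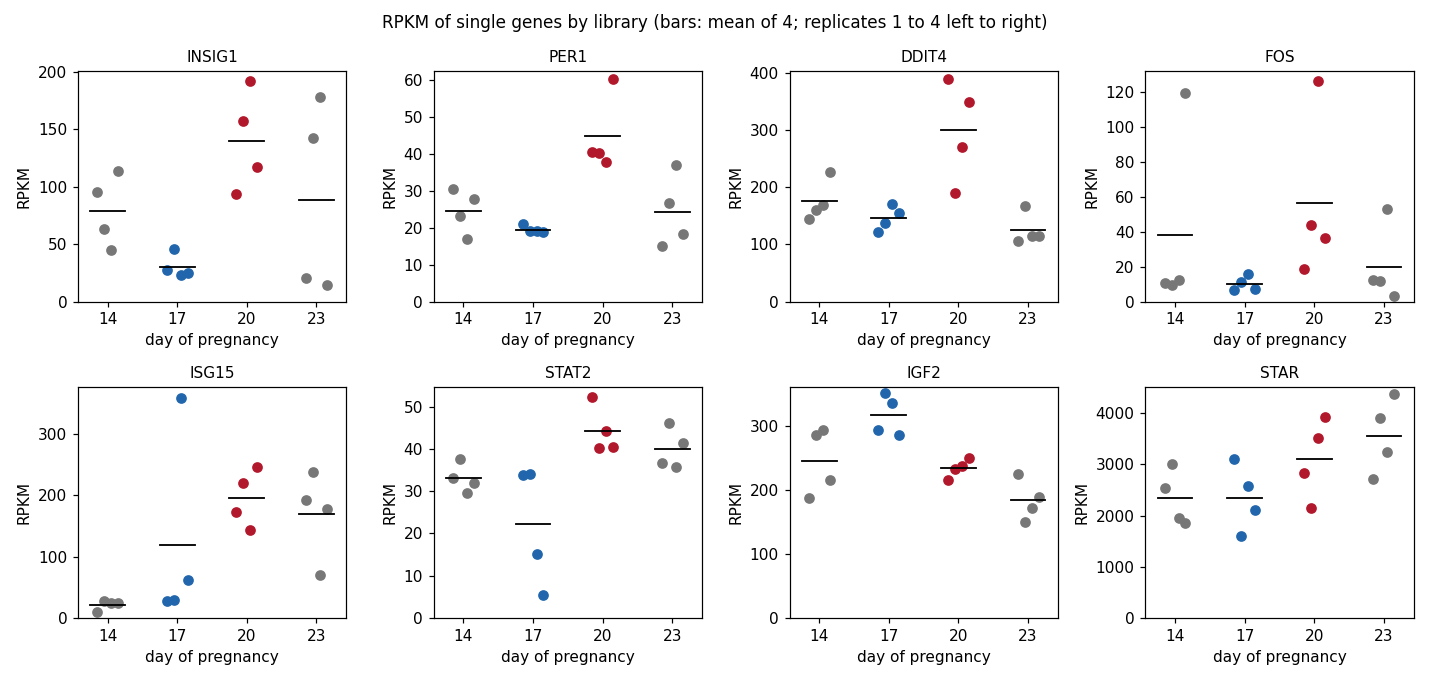
Each panel gives the RPKM of 1 gene in all 16 libraries by day of pregnancy, with the mean of 4 as a bar. INSIG1, PER1 and DDIT4 have no overlap between day 20 and day 17, ISG15 has 1 day 17 library at 359.5, and IGF2 lies lower on day 20 than on day 17.

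Among 31 genes of endoplasmic reticulum folding and stress, 24 were positive with a median of 0.10, 4 were higher and 1 lower at an unadjusted p under 0.05. DDIT4, an inhibitor of mTOR signalling that glucocorticoid and low oxygen induce, had 389, 190.0, 271 and 348 on day 20, against 121, 138, 169.8 and 155 on day 17 (0.99 ± 0.21, adjusted p = 0.32). The stress transcription factors XBP1 and ATF4 lay wholly above as well, with means of 132 ± 13.4 and 260.5 ± 21.6 on day 20, against 97.1 ± 7.02 and 204 ± 8.55 on day 17. DDIT3, which ATF4 can induce and which promotes cell death, lay below: it had 16.7, 17.7, 15.8 and 16.9 on day 20, against 27.2, 18.3, 20.9 and 23.2 (-0.38 ± 0.14, adjusted p = 0.48).

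Of 34 genes of cell death and survival, 20 were positive with a median of 0.03, 5 were higher and 1 lower at an unadjusted p under 0.05. RIPK1, a kinase at the branch between survival and necroptosis, had 24.1, 28.3, 22.2 and 26.4 on day 20, against 20.5, 21.1, 21.4 and 19.6 on day 17 (0.27 ± 0.08, adjusted p = 0.44). CASP4, an inflammatory caspase, averaged 29.5 ± 2.15 on day 20 and 23.0 ± 3.72 on day 17, and BCL2L11, which triggers apoptosis, 7.40 ± 3.59 and 3.97 ± 1.06. These values are means ± SD of 4 libraries.

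Markers of macrophages and monocytes had positive differences in 18 of 19 tested members, with a median of 0.41; 6 were higher at an unadjusted p under 0.05 and 0 lower. CD14, a co-receptor for endotoxin, had 16.4, 21.8, 9.79 and 16.2 on day 20, against 11.7, 8.73, 9.45 and 7.80 on day 17 (0.67 ± 0.26, adjusted p = 0.49). The scavenger receptors CD163 and MSR1 averaged 24.2 ± 8.74 and 5.04 ± 0.79 on day 20, against 15.2 ± 5.32 and 3.40 ± 0.56 on day 17. CD86, a co-stimulatory ligand, averaged 3.11 ± 0.77 and 1.82 ± 0.66. MSR1 alone among the 19 lay wholly above. The mean level of the list ranged over 3.54 to 3.94 on day 20 and 2.74 to 3.77 on day 17. Day 17 replicate 2 was the lowest of its day in 15 of the 19 members, against 3816 of the 12999 genes tested. No tested member was at 0, and MARCO was under the filter.

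Complement, a cascade of blood and tissue proteins that tags cells for removal, was positive in 20 of 20 members with a median of 0.43; 3 were higher at an unadjusted p under 0.05 and CFI lay wholly above. C2 averaged 6.35 ± 1.37 on day 20 and 3.98 ± 2.74 on day 17, and the receptor C5AR1 3.82 ± 1.32 and 1.99 ± 0.48. CLU, a secreted chaperone, had 388, 477, 339 and 619.7 on day 20, against 308, 399, 178 and 269 on day 17 (0.68 ± 0.32, adjusted p = 0.61). SERPING1, an inhibitor of the first steps, averaged 136 ± 27.9 and 100.5 ± 18.6. The mean level of the list was 5.07 to 5.38 on day 20 and 4.28 to 5.06 on day 17. The days did not overlap, by a narrow margin. Day 17 replicate 2 was the lowest library of its day in 15 of the 20 complement genes too, against 3816 of all genes tested. The part of the macrophage level in the complement, class II and interferon values was not tested.

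Of 24 chemokines and cytokines, 18 were positive, with 1 higher and 1 lower at an unadjusted p under 0.05. TNFSF10, the death ligand TRAIL, lay wholly above with 28.0, 57.1, 29.5 and 32.6 on day 20, against 18.1, 27.3, 27.7 and 25.9 on day 17. CXCL16 averaged 54.3 ± 5.10 and 44.1 ± 5.71, IL34 4.50 ± 0.67 and 6.14 ± 1.16, and TGFB1, which lay wholly below, 24.5 ± 1.203 and 28.2 ± 2.36 (SD, n = 4). Markers of lymphocytes overlapped: 12 of 14 T cell markers were positive, but 0 reached an unadjusted p of 0.05, and LCK and CD3E averaged 5.01 ± 1.98 and 5.36 ± 2.65 on day 20, against 4.87 ± 1.11 and 4.32 ± 1.46 on day 17. Natural killer and cytotoxic markers were positive in 6 of 12, with CCL5 at 10.5 ± 7.67 and 10.4 ± 3.60 and CTSW at 8.71 ± 3.96 and 9.02 ± 4.45.

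**Figure D4:**
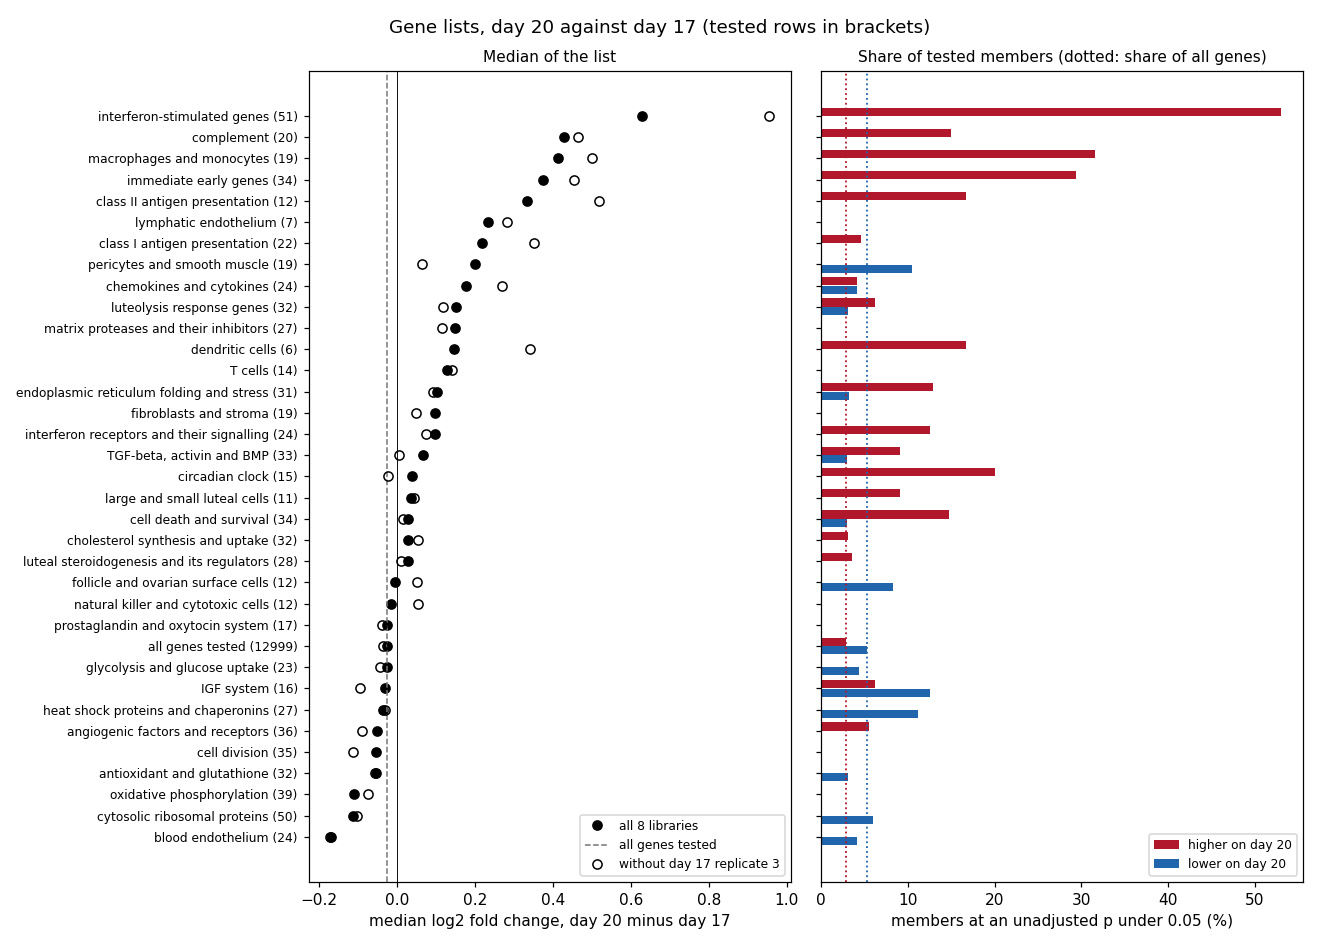
Left, the median log2 fold change of each gene list with at least 5 tested members, filled with all 8 libraries and open without day 17 replicate 3, with the median of all genes as a dashed line; right, the share of tested members at an unadjusted p under 0.05, in bars from 0, with the share of all genes (2.87% higher, 5.33% lower) as dotted lines. Interferon-stimulated genes have the highest median, 0.63, and blood endothelium the lowest, -0.17.

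Growth factor pathways were mixed. In the TGF-beta, activin and BMP list 20 of 33 were positive, with 3 higher and 1 lower at an unadjusted p under 0.05. CHRDL1, a secreted BMP antagonist, had 3.78, 3.25, 3.51 and 3.11 on day 20, against 1.38, 2.54, 1.12 and 2.20 on day 17 (0.68 ± 0.16, adjusted p = 0.36). ID2, a target of BMP that blocks differentiation factors, had 83.8, 66.2, 83.2 and 139 on day 20, against 42.1, 52.3, 39.8 and 28.1 (1.16 ± 0.30, adjusted p = 0.39). SMAD6, an inhibitor within the pathway, averaged 6.15 ± 0.50 on day 20 and 4.10 ± 0.84 on day 17, and the receptor ACVR2B, wholly below, 1.06 ± 0.14 and 1.46 ± 0.22.

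In the IGF list 6 of 16 were positive, with 1 higher and 2 lower at an unadjusted p under 0.05. IGF2, a growth factor, had 216, 233, 236 and 249 on day 20, against 294, 351, 336 and 285 on day 17 (-0.43 ± 0.15, adjusted p = 0.45). IGF2R, which clears IGF2 to lysosomes, averaged 52.7 ± 7.40 on day 20 and 65.7 ± 5.19 on day 17 (SD, n = 4), and the days overlapped in it. The binding proteins IGFBP2 and IGFBP5 averaged 11.2 ± 4.84 and 113 ± 31.8 on day 20, against 6.32 ± 0.98 and 77.9 ± 46.5 on day 17.

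The main genes of progesterone synthesis overlapped between the days. HSD3B1, which makes progesterone from pregnenolone, averaged 5155 ± 666 on day 20 and 4759 ± 616 on day 17, with a log2 fold change of 0.11 and a 95% interval of -0.23 to 0.46. CYP11A1, which cleaves the cholesterol side chain, had an interval of -0.32 to 0.40 around 0.04. STAR, which carries cholesterol into mitochondria, had 2826, 2149, 3509 and 3919 on day 20, against 3104, 1594, 2579.8 and 2101 on day 17 (0.41, interval -0.11 to 0.92). Of 28 tested members of the steroidogenesis list 15 were positive, 1 was higher at an unadjusted p under 0.05 and 0 lower. The higher one was NR5A1, a transcription factor of steroidogenic genes, with a log2 fold change of 0.34. In the list 1 member lay wholly below and 0 wholly above, where 3.17% and 1.38% of all genes did. LHCGR was not analysed here.

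OXT, the luteal oxytocin gene, had 1536, 1929, 2335 and 1033 on day 20, against 2598, 3395, 2949 and 1320.0 on day 17 (-0.57 ± 0.33, adjusted p = 0.7). It averaged 4197 ± 1206 on day 14 and 1304 ± 528 on day 23, and the day 20 and day 17 values overlapped through the lowest day 17 library. PTGFR, the receptor for prostaglandin F2 alpha, averaged 395 ± 115 on day 20 and 376 ± 122 on day 17 (0.07, interval -0.45 to 0.60). In the prostaglandin and oxytocin list 8 of 17 were positive and 0 reached an unadjusted p of 0.05 either way. PTGS2, OXTR and HPGD were under the filter, with PTGS2 at 0.173 to 0.411 on day 20 and 0.0643 to 0.332 on day 17.

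Genes that respond when luteolysis is induced were positive in 24 of 32 tested members with a median of 0.15, and 2 were higher and 1 lower at an unadjusted p under 0.05. The higher ones were EGR1, given above, and FGF2, a growth factor of vessels, at 1.95 ± 0.23 on day 20 and 1.34 ± 0.28 on day 17. EDNRA, the receptor for endothelin on muscle cells, was the lower one, at 6.48 ± 0.81 and 8.73 ± 1.42, and EDN1 itself was at 1.17 ± 0.18 and 1.45 ± 0.65. NOS3, the nitric oxide synthase of endothelium, lay wholly below with 11.6, 11.6, 12.0 and 10.8 on day 20, against 16.2, 14.4, 15.7 and 12.4 on day 17 (-0.32 ± 0.15, adjusted p = 0.61).

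INSIG1 belongs to the list of cholesterol synthesis and uptake. Of 32 tested members of that list 17 were positive with a median of 0.03, and INSIG1 alone was higher at an unadjusted p under 0.05. The enzymes FDPS and TM7SF2 averaged 248 ± 70.4 and 221 ± 51.1 on day 20, against 299 ± 59.3 and 253 ± 31.3 on day 17.

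Markers of blood endothelium were negative in 22 of 24 with a median of -0.17, and 21 were negative under median-ratio scaling. At an unadjusted p under 0.05, 1 was lower and 0 higher, a share near that of all genes. ROBO4 and NOS3 lay wholly below. The mean level of the list was 4.94 to 5.09 on day 20 and 5.10 to 5.33 on day 17. ROBO4, a guidance receptor of vessels, had 62.5, 71.2, 73.3 and 74.7 on day 20, against 75.8, 101, 81.3 and 105 on day 17 (-0.35 ± 0.12, adjusted p = 0.46). CDH5, the junction protein, averaged 54.0 ± 2.78 on day 20 and 64.3 ± 9.51 on day 17, and CD34 77.3 ± 5.74 and 92.0 ± 10.6 (SD, n = 4). The angiogenic factor VEGFA averaged 135 ± 25.4 and 117 ± 36.2, and the endothelial receptor APLNR 15.3 ± 1.77 and 23.9 ± 9.21. Of 36 angiogenic genes 15 were positive, and HIF1A and FGF2 were the 2 higher at an unadjusted p under 0.05.

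For pericytes and smooth muscle, 10 of 19 tested markers had a positive difference with a median of 0.20, or 0.06 without day 17 replicate 3. MYH11, the smooth muscle myosin, and SYNPO2, an actin-binding protein, averaged 40.3 ± 13.4 and 16.3 ± 2.12 on day 20, against 27.5 ± 2.73 and 13.2 ± 2.27 on day 17. SMTN and KCNJ8 were lower at an unadjusted p under 0.05, at 30.5 ± 4.79 and 19.1 ± 1.79 on day 20, against 38.1 ± 3.46 and 24.2 ± 3.59 on day 17. Of 19 fibroblast markers 16 were positive, but 0 reached that threshold, and COL1A1 and COL3A1 overlapped fully at 1589 ± 488 and 1407 ± 525 on day 20, against 1403 ± 751 and 1328 ± 509.9 on day 17. HBB, the beta chain of haemoglobin, was under the filter and lower on day 20: 0.581, 0.085, 0.202 and 0, against 14.9, 4.11, 0.921 and 21.8 on day 17. The part of blood in the other results was not tested.

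**Figure D5:**
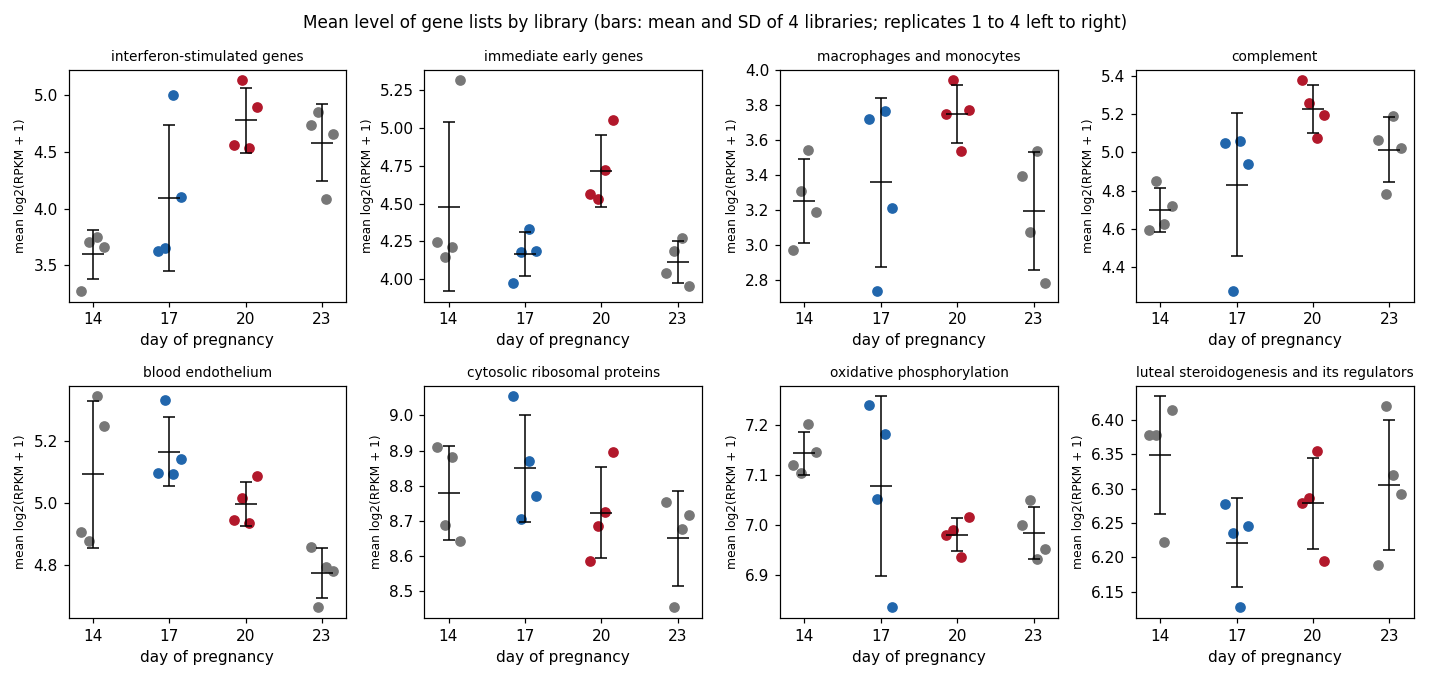
Mean of log2(RPKM + 1) over the tested members of 8 gene lists in each of the 16 libraries, by day of pregnancy, with the mean and SD of 4 as bars; the y axes differ in range and do not start at 0. Immediate early genes separate day 20 (4.53 to 5.05) from day 17 (3.98 to 4.33). By narrow margins, complement lies higher on day 20 (5.07 to 5.38 against 4.28 to 5.06) and blood endothelium lower (4.94 to 5.09 against 5.10 to 5.33). Day 17 replicate 3 reaches 5.003 for interferon-stimulated genes.

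Ribosomal proteins and the respiratory chain had small negative differences in nearly every member, few of which reached an unadjusted p of 0.05. All 50 rows of cytosolic ribosomal proteins were negative with a median of -0.11, against -0.03 over all genes, and 49 were negative under median-ratio scaling, where the medians were -0.08 and 0.01. At an unadjusted p under 0.05, 3 were lower, a share near the 5.33% of all genes. The mean level of the list was 8.59 to 8.90 on day 20 and 8.70 to 9.05 on day 17, so the days overlapped. Day 20 replicate 4 was the highest day 20 library in 43 of the 50 rows, and day 17 replicate 2 the lowest of day 17 in 37. Over the 12999 genes tested these counts were 4458 and 3816. RPS2 had 446, 439, 472 and 465 on day 20, against 599, 519.9, 528 and 503 on day 17 (-0.24 ± 0.09, adjusted p = 0.52), and RPS7 averaged 575 ± 49.8 and 683 ± 40.6. For oxidative phosphorylation 37 of 39 were negative with a median of -0.11, and 0 reached an unadjusted p of 0.05. Under median-ratio scaling 34 were negative and 5 positive, with a median of -0.078 against 0.005 over all genes. ATP5F1B, a subunit of ATP synthase, averaged 547 ± 37.0 on day 20 and 613 ± 46.9 on day 17. The mean level of the respiratory list was 6.94 to 7.02 on day 20 and 6.84 to 7.24 on day 17, so the days overlapped.

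Of 27 rows of heat shock proteins and chaperonins 11 were positive, and 3 were lower at an unadjusted p under 0.05, all of them mitochondrial chaperones. HSPD1 and its partner HSPE1 averaged 40.8 ± 6.44 and 263 ± 24.7 on day 20, against 50.7 ± 5.85 and 294 ± 9.24 on day 17, and TRAP1 averaged 33.9 ± 2.28 and 39.9 ± 5.50 (SD, n = 4). Cell division genes were negative in 26 of 35 with 0 at that threshold, and CCND3 and CDKN1A averaged 194 ± 38.1 and 42.7 ± 5.18 on day 20, against 171 ± 37.3 and 53.6 ± 13.3 on day 17. Glycolysis (9 of 23 positive), antioxidant genes (10 of 32) and matrix proteases (19 of 27) had 1, 1 and 0 members at an unadjusted p under 0.05. These were LDHB and MGST1, with log2 fold changes of -0.23 and -0.73.

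Several genes outside these lists are named after their values were seen. CEBPD, a transcription factor of the acute phase, had 131, 108, 116 and 216 on day 20, against 54.6, 35.3, 109 and 54.2 on day 17 (1.22 ± 0.30, adjusted p = 0.36). IRAK2, a kinase of interleukin-1 and Toll-like receptor signalling, had 8.82, 9.05, 8.04 and 15.8 on day 20, against 6.07, 5.25, 5.47 and 5.11 (0.77 ± 0.16, adjusted p = 0.32). The phosphate carrier SLC20A1 averaged 46.3 ± 21.9 on day 20 and 17.6 ± 1.5 on day 17, the sialyltransferase ST3GAL1 29.5 ± 7.81 and 12.7 ± 1.21, and PDE4D, which breaks down cAMP, 3.89 ± 1.04 and 1.62 ± 0.50. In each of these 3 genes the days did not overlap.

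Downward, BRAT1, a partner of DNA damage kinases, had 8.31, 9.07, 8.44 and 9.37 on day 20, against 14.4, 12.7, 16 and 13.03 on day 17 (-0.61 ± 0.13, adjusted p = 0.32). MFSD10 averaged 24.6 ± 0.55 on day 20 and 32.4 ± 2.73 on day 17. TFRC, the receptor for iron uptake, had 10.1, 9.74, 13.2 and 7.84 on day 20, against 13.5, 15.3, 14.1 and 21.8 (-0.61 ± 0.27, adjusted p = 0.58). BCL6B, a transcriptional repressor of endothelium, averaged 11.2 ± 0.70 on day 20 and 18.0 ± 6.32 on day 17. In all 4 genes the 4 day 20 libraries lay below the 4 of day 17.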

How the data were processed

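The authors deposited a table of RPKM values for 27233 genes, with 1 column for each of 16 libraries made with a stranded mRNA kit, per the labels' protocols. Per the submitters' processing notes, reads on the build ARS-UCD1.2 were handled with HISAT2 2.1.0, featureCounts 1.5.3, bedtools 2.26.0, FastQC and DESeq2. The sources used here give neither the settings nor whether counting used strand. The p-value columns that the authors deposited name no comparison and were not used. Genes with low RPKM values gave the relative depth of the libraries. Once corrected for depth, the values were whole multiples of a step in 27233 of 27233 genes (tolerance 0.001), which gave the reads.

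Genes that reached an RPKM of 1 in 4 or more of these 8 libraries were fitted with limma 3.58.1 in R 4.3.3 on log2(RPKM + 1), which understates changes of low genes. The model held all 16 libraries, with a trended prior and Benjamini-Hochberg adjustment over 12999 genes. The script was tested on simulated data. Named genes were the 12 largest differences each way as described, up to 4 members of each list with the smallest p, or the 2 highest in lists described as level, and landmark genes of the tissue. The members and the gene lists were chosen with earlier results of these data known. The promoters planned were not analysed here. Some genes are not reported here.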

Additional observations from a re-analysis of the deposited data

Results flagged for a closer look

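In 146 groups of 4 libraries (78 of single genes and 68 of list levels), 1 library stood far from the other 3 in 7, by Dixon's test. Chance marks about 1 in 20 such groups. Among genes, MX2 was at an RPKM of 16.2 in day 20 replicate 2, IFIT1 was at 31.3 in the same library, and ANKRD33B was at 0.369 in day 17 replicate 2. Among mean levels of lists on log2(RPKM + 1), the circadian clock was at 3.73 in day 20 replicate 4. Class II antigen presentation was at 5.23 in day 17 replicate 3, complement at 4.28 in day 17 replicate 2, and cholesterol synthesis and uptake at 6.76 in day 17 replicate 1.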

How the results depend on the processing

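With limma, 0 genes passed the adjusted threshold in any of 18 other settings, and the smallest adjusted p ranged from 0.06 without day 20 replicate 2 to 0.439 without day 17 replicate 4. With no filter on low values, 585 genes were higher and 942 lower at an unadjusted p under 0.05, of 20484 tested. Leaving out each library in turn gave 268 to 421 genes wholly above and 533 to 897 wholly below, since 3 libraries overlap less often than 4. The samples share only a replicate number: deviations of same-numbered libraries correlated at -0.045, 0.233, -0.095 and -0.072. With the replicate number as a block, 409 genes were higher and 731 lower at an unadjusted p under 0.05, and the smallest adjusted p was 0.129.

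Some list medians moved by more than the spread of the list level between libraries, and the cause was not tested. Leaving out each library gave -0.057 to 0.052 for prostaglandin and oxytocin, 0.035 to 0.146 for endoplasmic reticulum stress and -0.094 to 0.051 for the IGF system. A mean RPKM of at least 5 gave -0.115 for the circadian clock, and voom gave 0.423 for dendritic cells. Day 17 replicate 3 was left out, a choice made after seeing the data. Members wholly above then numbered 38 of 51 (interferon-stimulated), 12 of 34 (immediate early) and 2 of 19 (macrophages). For class I, class II and complement they numbered 5 of 22, 2 of 12 and 2 of 20. With all 8 libraries these were 3, 5, 1, 0, 0 and 1. The share of all genes wholly above rose from 1.38% to 2.65%. Those higher at an unadjusted p under 0.05 then numbered, in the same order, 44, 10, 8, 6, 5 and 6. With all 8 libraries these were 27, 10, 6, 1, 2 and 3, and the shares of all genes were 2.92% and 2.87%. The choice favours higher values where that library was high, so these counts are no further support for a difference.

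Genes near 0 changed sign. CYP11A1 was at -0.068 with quantile normalization, -0.033 with array weights and -0.121 to 0.162 with each library left out. LCK was at 0.016 with median-ratio scaling, 0.003 with quantile normalization and -0.151 to 0.158 with each library left out, and COX6A1 at 0.005 with quantile normalization and -0.137 to 0.032. Leaving out each library gave -0.079 to 0.277 for PTGFR, -0.560 to 0.208 for CCL5, -0.336 to 0.295 for CTSW, -0.019 to 0.465 for CD3E, -0.138 to 0.316 for COL3A1, -0.033 to 0.241 for IFNAR1 and -0.254 to 0.022 for EDN1. T cell markers gave no median at a mean RPKM of at least 5. The planned edgeR and DESeq2 fits were not run, and limma's voom was the only fit to the recovered reads.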
